A study of Mus musculus with 6 samples.

Results

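Barx1, Barx2, Tlx1, Tlx2, Tlx3, Lbx1, Hlx, Vax1, Vax2 and Emx2 are 10 of the 24453 gene symbols counted in sorted skin cells of newborn mice (postnatal day 0). They were chosen by their measured levels from the NK-like class and related homeobox genes, to set Barx1, high in 2KO libraries and almost absent from control libraries, beside its paralog Barx2, a gene of the hair follicle. The members were therefore selected on the same contrast that is described below, so that their levels, folds and calls are a description and test nothing about them. RNA sequencing was done on 3 libraries labelled Ring1a/b 2KO, with the genotype Ring1a-/- Ring1b-/-, and on 3 libraries labelled control, whose genotype is given only by that word. RING1A and RING1B are the catalytic ubiquitin ligase subunits of PRC1, a Polycomb complex. The driver of the deletion, the alleles that the control animals carry, and how many animals gave a library were not given in the sources used here. P-values therefore measure the spread between these libraries, which may in part be technical. The labels name the cells hair follicle cells, whereas the protocol text of the same samples describes a sort for interfollicular epidermis.

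PRC1 marks histone H2A with ubiquitin at CpG-rich promoters of developmental genes and keeps them silent in lineages where they are not used. NK-like homeobox genes encode transcription factors that bind DNA through a homeodomain and take part in the identity of organs and neurons. Barx1 acts in the mesenchyme of the stomach and of teeth, and Barx2 acts in hair follicles and muscle, where it has been linked to genes of cell adhesion. Tlx1 is needed for the spleen, Tlx2 for enteric neurons and Tlx3 for sensory neurons of the spinal cord, where Lbx1 acts as well as in migrating muscle precursors. Hlx acts in the mesenchyme of gut and liver, Vax1 and Vax2 in the ventral eye and forebrain, and Emx2 in the cerebral cortex and the urogenital tract.

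The libraries labelled 2KO held 24.8 to 29.9 M counts (M, mega) and those labelled control 28.2 to 30.8 M, so that 1 count was worth 0.0323 to 0.0392 CPM (counts per M counts, scaled by TMM, edgeR's correction for library composition). The targeted gene Ring1 was at 1.84, 7.34 and 14.1 CPM in 2KO replicates 1 to 3, against 19.5, 22.4 and 3.37 CPM in control replicates 1 to 3. For Ring1, 2KO replicate 3 lay near control replicates 1 and 2, and control replicate 3 lay among the lower 2KO libraries, so that both replicate-3 libraries went against their labels, and the removed part of the gene is not named in the labels; 2KO and control below mean the libraries so labelled. Rnf2, which encodes RING1B, was at 77.0 ± 11.5 CPM in 2KO and 64.7 ± 16.4 CPM in control libraries (SD, n = 3 each). Xist, the RNA of the inactive X chromosome, was at 4550 to 5360 CPM in 2KO replicates 1 and 2 and in control replicate 3, and at most 10.4 CPM in the other libraries. Epcam and Itga6, the epithelial genes of the sort, were present throughout (282 ± 65.7 and 973 ± 108 CPM in 2KO, 195 ± 51.8 and 782 ± 97.1 CPM in control), while Ly6a, which encodes the sort antigen Sca1, stood at 4.66 ± 2.68 and 4.26 ± 1.31 CPM. In whole populations of sorted cells, fewer expressing cells and less RNA per cell cannot be told apart.

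Of the 10 members, 8 passed the filter on low counts, 4 of these were higher in 2KO and none was lower (edgeR quasi-likelihood test over 14972 genes, threshold at a Benjamini-Hochberg adjusted p of 0.05). In the same fit 6.61% of all tested genes were higher in 2KO and 2.42% were lower. The 4 were Barx1, Vax2, Tlx1 and Emx2. Tlx3, Hlx, Vax1 and Barx2 did not pass, and Lbx1 and Tlx2 had too few counts to be tested. Among the 8, only Barx2 had 3 control libraries above the filter's cutoff of 0.345 CPM. The other 7 passed only through their 2KO libraries. The filter thus favoured a higher level in 2KO for them, and their differences are a description and test nothing. They were among 1761 tested genes with a control mean under 1 CPM, of which 17.4% were higher in 2KO. All 2KO libraries lay above all control libraries for these 7, a separation seen for 15.2% of all tested genes. The median log2 fold change was 3.90 over the 8 tested members and -0.02 over all tested genes. The number of risen members was 2 without 2KO replicate 1, without 2KO replicate 2, without control replicate 1 and without control replicate 3, and 1, Barx1, with both replicate-3 libraries left out.

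**Figure D1:**
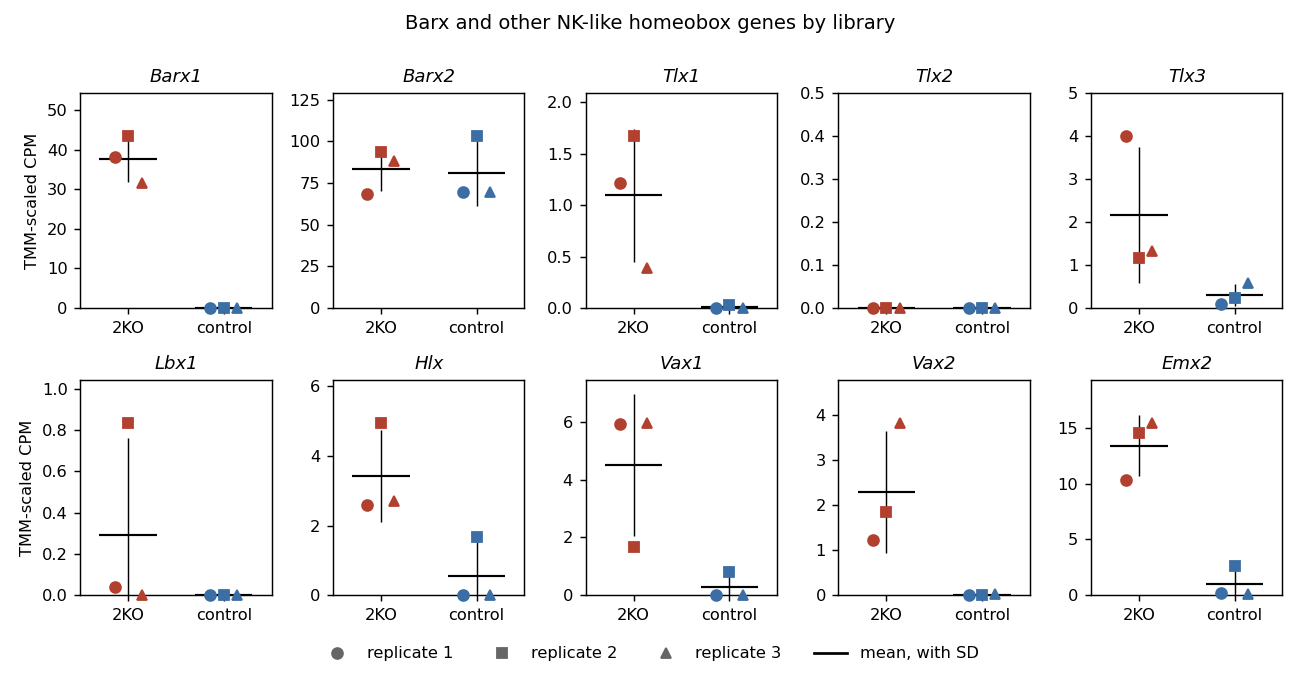
TMM-scaled CPM of the 10 genes in each library, with 2KO (red) left of control (blue), a symbol for each replicate number, and the group mean with its SD; each panel has its own linear axis from 0. Barx1 is between 31.7 and 43.4 CPM in 2KO and at most 0.0646 CPM in control libraries, Barx2 overlaps between the groups, and control replicate 2 is the highest control library for Hlx, Vax1 and Emx2.

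Barx1, on the plus strand of chromosome 13 from 48662998 to 48666507 (GRCm38, as all positions here), reached 38.2, 43.4 and 31.7 CPM in 2KO libraries, against 0, 0.0646 and 0 CPM in control libraries. All 2KO libraries were high and close to each other, and the control level rested on 2 reads in control replicate 2. The summed counts, 3082 in 2KO and 2 in control, gave a ratio of 1710 (95% exact binomial interval 473 to 14100, counting error only). In the fit, the log2 fold change was 10.47 (SE 0.59), and it passed in each of 13 alternative analyses, with values from 9.95 to 13.04.

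Barx2, on the minus strand of chromosome 9 from 31846044 to 31913462, reached 68.6, 93.8 and 88.2 CPM in 2KO libraries, against 69.6, 103 and 69.5 CPM in control libraries. The groups overlapped, with replicate 2 the highest library in each. The log2 fold change was 0.05 (SE 0.22, 95% interval -0.45 to 0.54), and its sign turned in 4 of the 13 alternatives, among them those that left out 2KO replicate 2 (-0.03), or from the control group replicate 1 (-0.03) or 3 (-0.05). On the linear scale the interval spans 0.733-fold to 1.46-fold. Of 14 follicle markers in the same libraries, 8 were lower in 2KO and none was higher. Their summed level was 1370 to 1960 CPM in 2KO and 1480 to 2120 CPM in control libraries. Of all tested genes, 2.42% were lower. The 8 were Shh, Lgr5, Msx2, Hoxc13 and the keratins Krt71, Krt25, Krt27 and Krt28. These keratins passed the filter only through control libraries. Msx2 and Hoxc13 kept their calls in 6 of 13 alternatives each. Sox9 (log2 fold change -0.12), Gata3 (0), Foxn1 (-0.2), Edar (-0.48), Lhx2 (-0.93) and Krt17 (0.89) did not pass. Krt17 was higher and Lhx2 lower in 2KO without overlap. Krt71, a keratin of the inner root sheath, was at 0.271 ± 0.224 CPM in 2KO and 15.6 ± 4.93 CPM in control (log2 fold change -5.85, SE 0.63, edgeR adjusted p = 0.001). Lgr5, a marker of follicle progenitors, was at 12.9 ± 10.7 CPM in 2KO and 119 ± 70.8 CPM in control (log2 fold change -3.20, SE 0.72, edgeR adjusted p = 0.023). The call of Lgr5 was lost without 2KO replicate 3 (edgeR adjusted p = 0.0872) and without control replicate 1 (0.064). It was also lost with Xist as a covariate (0.0912) and without both replicate-3 libraries (0.145). Shh lost its call without 2KO replicate 2 (edgeR adjusted p = 0.0512) and without both replicate-3 libraries (0.0965).

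Per kilobase of exon (RPKM, from the TMM-scaled CPM and the union of annotated exons), the level of Barx2 in 2KO libraries was 42.5 RPKM on average (34.9 to 47.7) and that of Barx1 27.0 RPKM (22.7 to 31.0), without overlap. Emx2 followed at 4.47 RPKM (3.44 to 5.14) and Vax1 at 4.04 RPKM (1.49 to 5.34). Vax2, Hlx and Tlx3 were at 1.84, 1.5 and 1.41 RPKM, Tlx1 at 0.511 RPKM and Lbx1 at 0.117 RPKM. From Emx2 downward, the ranges over the 2KO libraries of each gene and the next in that order overlapped, down to Lbx1. In control libraries Barx2 led at 41.1 RPKM, and no other member averaged above 0.325 RPKM, the level of Emx2.

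Tlx1, at chromosome 19, 45150680 to 45156943, was at 1.22, 1.67 and 0.392 CPM in 2KO libraries, against 0, 0.0323 and 0 CPM in control libraries. The groups did not overlap, but 2KO replicate 3 held only 10 reads. The ratio of summed counts, 91 to 1, was 101 (95% interval 17.7 to 4030, counting error only), and the fitted log2 fold change was 6.15 (SE 1.33). Its call was lost without 2KO replicate 1 (log2 fold change 6.09) or 2 (5.71) and without control replicate 1 (5.76), 2 (7.94) or 3 (5.70). Tlx3, on chromosome 11 at 33200752 to 33203589, was at 4.0, 1.17 and 1.33 CPM in 2KO libraries, against 0.106, 0.226 and 0.589 CPM in control libraries. It was detected in every library and did not overlap between the groups, yet the spread left it short of the threshold (log2 fold change 2.80, SE 0.92), which it passed with DESeq2 (2.82). Tlx2 had 0 counts in all 6 libraries, which allows at most 0.0969 to 0.118 CPM in a library. Transcripts of different members share at most 32 bases in a row (Tlx2 and Tlx3), against reads of 100 bases.

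Lbx1 lies 75.7 kb from Tlx1 on chromosome 19. It had 1, 25 and 0 counts in 2KO replicates 1 to 3, against 0 counts in every control library. The 2KO level, at least 9.61-fold higher than 3 counts over the control group, thus came almost wholly from 2KO replicate 2.

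Vax2, on chromosome 6 at 83711264 to 83738313 and 641.0 kb from the undetected Tlx2, was at 1.22, 1.84 and 3.81 CPM in 2KO libraries, against 0, 0 and 0.0327 CPM in control libraries. All 2KO libraries were above the single read of the control group. The ratio of summed counts, 183 to 1, was 203 (95% interval 36.0 to 8060, counting error only), with a fitted log2 fold change of 7.21 (SE 1.21). Its call was lost when both replicate-3 libraries were left out (8.46).

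Emx2, Vax1 and Hlx shared a feature of the control group: nearly all control reads came from control replicate 2. Emx2 was at 10.3, 14.5 and 15.4 CPM in 2KO libraries, against 0.213, 2.62 and 0.0981 CPM in control libraries. Control replicate 2 held 81 of its 90 control counts, and still lay below every 2KO library. The log2 fold change was 3.77 (SE 0.96), and the call was lost without 2KO replicate 1 (3.93), 2 (3.72) or 3 (3.69) and without control replicate 1 (3.32) or 3 (3.23). Without control replicate 2 it was kept, at 6.40, and the ratio of summed counts over control replicates 1 and 3 alone was 88.0.

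Vax1 was at 5.92, 1.67 and 5.96 CPM in 2KO libraries, against 0, 0.807 and 0 CPM in control libraries. Replicate 2 was the lowest 2KO library and the only control library with reads, 25 in all. The log2 fold change was 4.03 (SE 1.35) and did not pass. Without control replicate 2 Vax1 passed, and its 2KO level was at least 85.4-fold higher than 3 counts over the remaining control libraries. Hlx (chromosome 1, 184727140 to 184732619) was at 2.59, 4.94 and 2.71 CPM in 2KO libraries, against 0, 1.68 and 0 CPM in control libraries. Control replicate 2, with 52 reads, reached 49.2% of the 2KO mean. The log2 fold change was 2.59 (SE 1.42) and did not pass, while without control replicate 2 it did, at least 68.5-fold higher than 3 counts over the other control libraries. Barx1, with 2 reads in control replicate 2, was there at 0.171% of its 2KO mean, and Vax2 had no read in that library. Of all tested genes, 7 reached 0.689 CPM in control replicate 2 with 0 counts in the other control libraries, Hlx and Vax1 among them. The corresponding number was 8, 3 and 3 for 2KO replicates 1 to 3, 2 for control replicate 1 and 2 for control replicate 3.

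**Figure D2:**
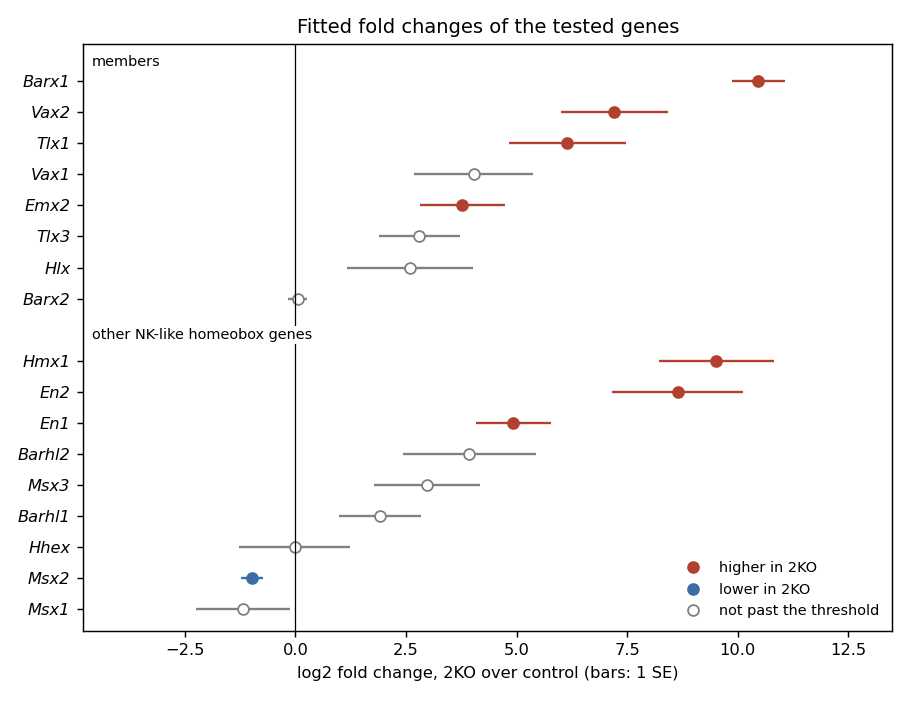
Fitted log2 fold change of 2KO over control with 1 SE on either side, for the 8 tested members (top) and the 9 tested genes of the other NK-like homeobox list (bottom); filled symbols passed the threshold. Barx1 has the highest value among the members at 10.47 and Barx2 lies at 0.05; the fitted values of Hmx1 and En2, at 0 counts in control libraries, depend on the prior count of the fit.

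Vax1 and Emx2 lie 288.3 kb apart on chromosome 19 (59166187 to 59170056 and 59458372 to 59465357), with Kcnk18, Slc18a2 and Pdzd8 between them. Emx2os, a noncoding RNA on the strand opposite to Emx2 that overlaps it by 264 bases, was at 3.80, 8.34 and 7.14 CPM in 2KO libraries, against 0, 3.84 and 0 CPM in control libraries. It thus had its control reads in the same library as Vax1 and Emx2, and it did not pass (log2 fold change 2.32, SE 1.44, edgeR adjusted p = 0.41). The strand setting of the counting was not given in the sources used here, so that reads of Emx2 and Emx2os in their overlap cannot be told apart. Slc18a2, a monoamine transporter gene, was at 10.9 ± 1.40 CPM in 2KO and 10.0 ± 0.818 CPM in control (log2 fold change 0.12, SE 0.28, edgeR adjusted p = 0.86). Pdzd8, which encodes a protein of membrane contact sites, was at 211 ± 28.2 CPM in 2KO and 177 ± 16.1 CPM in control (log2 fold change 0.25, SE 0.17, edgeR adjusted p = 0.445). Kcnk18, a potassium channel gene, had no read in 2KO libraries and 16 in control replicate 1.

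**Figure D3:**
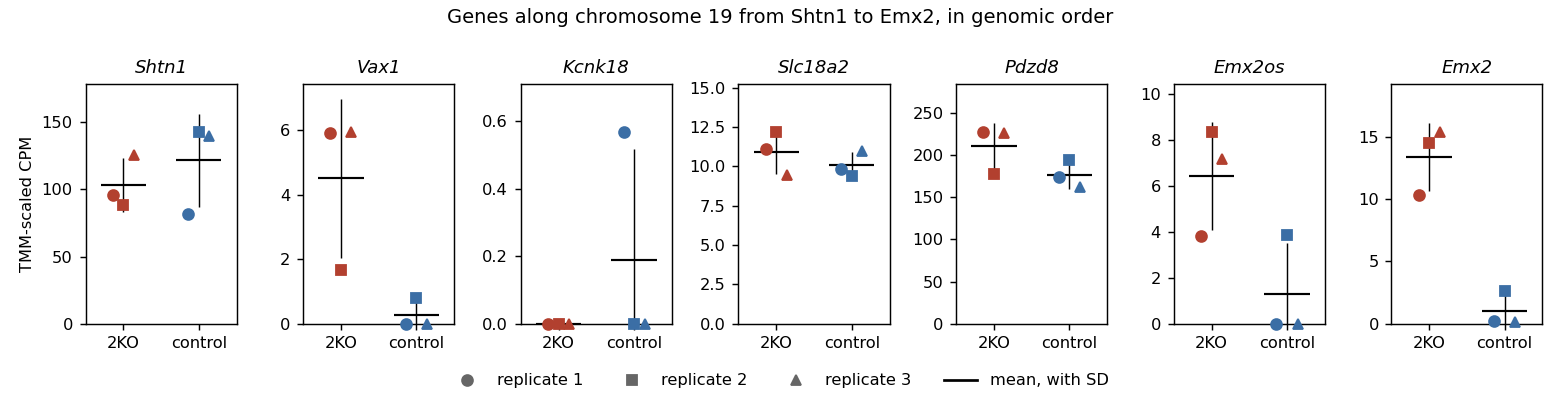
TMM-scaled CPM by library of genes along chromosome 19 from Shtn1 to Emx2, in genomic order, with 2KO (red) left of control (blue), a symbol for each replicate number and the mean with its SD; each panel has its own linear axis from 0. Vax1, Emx2os and Emx2 have their highest control value in replicate 2, whereas Slc18a2 and Pdzd8, which lie between them, are at similar levels in all libraries.

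The nearest protein-coding neighbours of the members, up to 2 on each side and other members left out, numbered 35, of which 30 were tested. None was higher in 2KO (edgeR, adjusted over all genes), 1 was lower and 29 did not pass, with a median log2 fold change of 0.12. Over all tested genes, the shares were 6.61% higher and 2.42% lower. Without 2KO replicate 1, 1 neighbour was higher. The neighbours of Barx1, namely Ptpdc1, Zfp169, Phf2 and Fam120a, had log2 fold changes of 0.27, 0.22, 0.05 and 0.12. Ptpdc1, the closest at 37.3 kb, was at 23.1 ± 7.31 CPM in 2KO and 19.1 ± 2.94 CPM in control. The lower neighbour was Gabrp, which encodes a subunit of a GABA receptor and lies 347.2 kb from Tlx3. Gabrp had 0 counts in 2KO libraries and 1.58 ± 0.887 CPM in control libraries (edgeR adjusted p = 0.0135), and its call was lost when either both replicate-1 or both replicate-3 libraries were left out. With no 2KO read, it passed the filter only through control libraries.

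**Figure D4:**
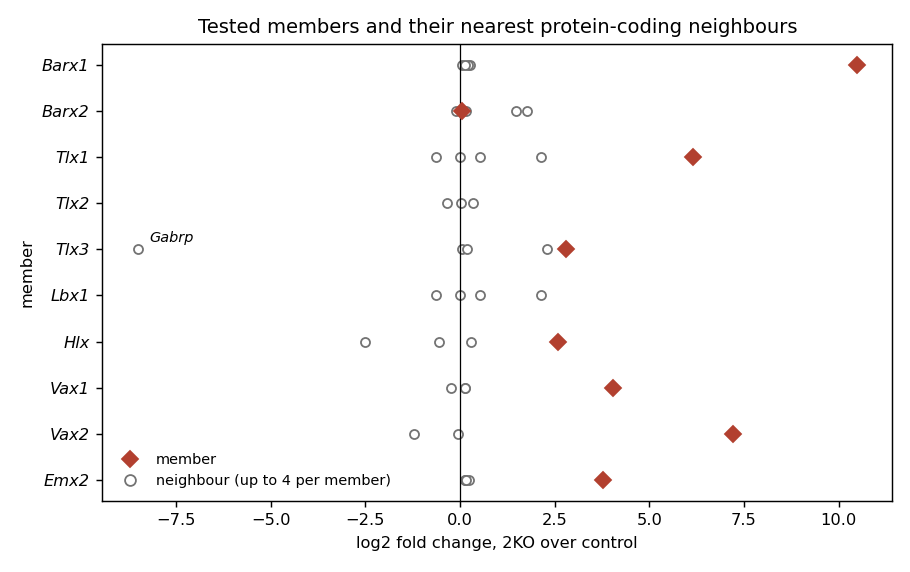
Log2 fold change of 2KO over control for each tested member (red diamonds) and for its nearest tested protein-coding neighbours (open circles, up to 4 per member), one line per member. Apart from Gabrp, which is at 0 counts in 2KO libraries, the neighbours lie between -2.52 and 2.29, and those of Barx1 between 0.05 and 0.27; Tlx1 and Lbx1 have the same neighbours.

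Promoter sequences (RefSeq, GRCm38.p6) matched 6 of the 10 members: Barx1, Tlx1, Tlx3, Hlx, Vax1 and Emx2. The dinucleotide CG, which reads the same on both strands, was counted in the 250 bases before the RefSeq start. It occurred 40 times at Barx1, 24 at Emx2, 15 at Tlx1, 13 at Tlx3, and 11 at both Hlx and Vax1. At Emx2 these bases begin at 59458440, inside the GENCODE gene, which starts at 59458372. Only 212 of the bases at Barx1, 215 at Tlx1 and 124 at Hlx also lie before the GENCODE start. The median over the promoters of 17600 counted genes was 10, with quartiles of 3 and 19, and 93.1% of them held at least 1 CG. Barx1 had more CG than 98.3% of these promoters, Emx2 more than 84.9%, and Hlx and Vax1 more than 52.0%. Observed over expected CG ranged from 0.676 (Tlx1) to 1.04 (Hlx) among the 6, against a median of 0.539 over all. The windows of Barx1, Tlx1 and Vax1 are shown because they span the range from the most to the fewest CG. Each is the part upstream of both the RefSeq and the GENCODE start, read 5′ to 3′ on the strand of the gene, with every CG in capitals. Barx1 is at chr13:48662786-48662997 (plus strand, 31 CG in 212 bases), Tlx1 at chr19:45150465-45150679 (plus strand, 12 CG in 215 bases) and Vax1 at chr19:59170398-59170647 (minus strand, 11 CG in 250 bases).
Barx1: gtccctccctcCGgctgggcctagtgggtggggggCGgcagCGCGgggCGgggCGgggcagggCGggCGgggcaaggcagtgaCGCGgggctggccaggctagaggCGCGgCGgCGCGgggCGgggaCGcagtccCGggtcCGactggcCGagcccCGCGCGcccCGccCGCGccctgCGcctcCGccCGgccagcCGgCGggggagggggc
Tlx1: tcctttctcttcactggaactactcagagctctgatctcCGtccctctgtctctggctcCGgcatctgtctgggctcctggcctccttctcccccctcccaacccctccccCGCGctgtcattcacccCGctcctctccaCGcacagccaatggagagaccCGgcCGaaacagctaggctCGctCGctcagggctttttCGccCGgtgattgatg
Vax1: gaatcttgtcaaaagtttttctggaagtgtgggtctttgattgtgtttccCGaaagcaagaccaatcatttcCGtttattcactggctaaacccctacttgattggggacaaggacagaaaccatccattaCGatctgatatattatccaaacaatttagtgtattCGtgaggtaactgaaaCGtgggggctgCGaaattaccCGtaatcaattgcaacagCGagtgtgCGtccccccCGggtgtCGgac
The Barx1 window thus holds more CG than that of Vax1, whose number lies near the median over all promoters. Over the full 250 bases, observed over expected CG was 0.891 at Barx1 and 0.878 at Vax1. A link between CG and the levels of the members was not tested.

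**Figure D5:**
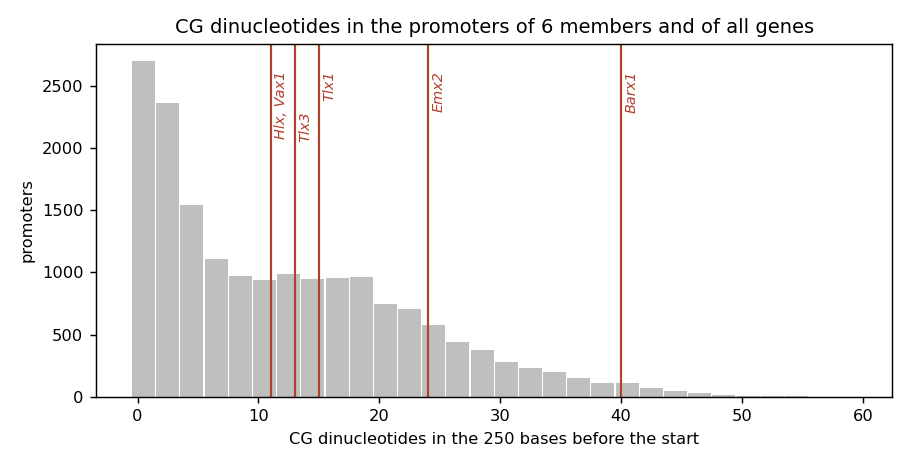
Number of promoters (vertical axis) by their number of CG dinucleotides in the 250 bases before the RefSeq start (grey bars), for 17600 counted genes, with the values of 6 members as red lines. Barx1, at 40, lies in the upper tail, and Hlx and Vax1, at 11, near the median of 10.

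Among 18 further NK-like homeobox genes outside the Nkx and Dlx families, 9 were tested, 3 were higher in 2KO, 1 was lower and 5 did not pass. Over all tested genes, 6.61% were higher and 2.42% were lower. The 3 risen genes had control means under 1 CPM, and of all tested genes at such a level 17.4% were higher. The median log2 fold change of the 9 was 2.98. Hmx1, a factor of eye and ear development, was at 3.21 ± 1.63 CPM in 2KO with 0 counts in control, at least 97.6-fold higher (edgeR adjusted p = 0.00516). En2, a factor of the midbrain and cerebellum, was at 1.75 ± 1.06 CPM with 0 counts in control, at least 52.5-fold higher (edgeR adjusted p = 0.0122). En1, which also patterns limb ectoderm, was at 4.21 ± 2.32 CPM in 2KO and 0.134 ± 0.0969 CPM in control (log2 fold change 4.93, SE 0.84, edgeR adjusted p = 0.00689). Hmx1, En2 and En1 were under the filter's cutoff of 0.345 CPM in every control library and passed it only through 2KO libraries. Their folds and calls are thus a description and test nothing. Msx2, a factor of hair differentiation, was at 16.4 ± 3.93 CPM in 2KO and 32.7 ± 2.70 CPM in control (log2 fold change -0.99, SE 0.25, edgeR adjusted p = 0.0365). The call of Msx2 was lost without 2KO replicate 1 (adjusted p = 0.0669) or 3 (0.102) and without control replicate 1 (0.078), 2 (0.0913) or 3 (0.126). When both replicate-3 libraries were left out, 1 of the 9, Hmx1, was higher and none was lower. The calls of En2 and En1 were then lost (edgeR adjusted p = 0.0566 and 0.0826). En2 also lost its call without both replicate-1 libraries (0.0581).

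Of 25 genes known to act beside the members in other tissues, 19 were tested, 8 were higher in 2KO, 1 was lower and 10 did not pass, with a median log2 fold change of 0.56. The shares over all tested genes were 6.61% higher and 2.42% lower. From the stomach, where Barx1 acts, Six2, a factor of the pyloric sphincter and of kidney progenitors, was at 48.9 ± 20.8 CPM in 2KO and 0.573 ± 0.637 CPM in control (log2 fold change 6.40, SE 0.88, edgeR adjusted p = 0.00249). Sfrp2, a secreted Wnt inhibitor of stomach mesenchyme, was at 66.9 ± 16.7 CPM in 2KO and 9.55 ± 4.54 CPM in control (log2 fold change 2.81, SE 0.36, edgeR adjusted p = 0.00195). Its relative Sfrp1, of the same tissue, was at 111 ± 23.4 CPM in 2KO and 64.9 ± 17.8 CPM in control and did not pass (log2 fold change 0.77, SE 0.25, edgeR adjusted p = 0.0968). Isl1, also of the stomach, went the other way and did not pass. It was at 1.69 ± 0.478 CPM in 2KO and 2.4 ± 0.581 CPM in control (log2 fold change -0.51, SE 0.56, edgeR adjusted p = 0.688). Nkx3-2, a further stomach factor, had 0 counts in all libraries. Wt1, which is needed for the spleen as Tlx1 is, was at 11.9 ± 5.4 CPM in 2KO with 0 counts in control, at least 357-fold higher (edgeR adjusted p = 0.000969). Pax3, a factor of muscle precursors and the dorsal spinal cord, was at 23.9 ± 7.01 CPM in 2KO and 0.444 ± 0.0506 CPM in control (log2 fold change 5.73, SE 0.38, edgeR adjusted p = 9.57e-05). Of the eye and forebrain factors, which act where Vax1, Vax2 and Emx2 do, Pax6 was at 10.1 ± 1.70 CPM in 2KO and 0.581 ± 0.352 CPM in control (log2 fold change 4.10, SE 0.56, edgeR adjusted p = 0.00249). Pax2 and Six3 had 0 counts in control and were at 3.07 ± 0.455 and 2.19 ± 0.790 CPM in 2KO, at least 92.0-fold and 64.3-fold higher (edgeR adjusted p = 0.00331 and 0.00675). The call of Six3 was lost when both replicate-3 libraries were left out. Of the risen partners named here, only Sfrp2 and Pax3 had 3 control libraries above the filter's cutoff of 0.345 CPM. Six2, Wt1, Pax6, Pax2 and Six3 passed the filter only through 2KO libraries, so that their calls are a description and test nothing. Lhx2, a factor of the eye and forebrain and also of hair follicle progenitors, was at 152 ± 21.2 CPM in 2KO and 291 ± 113 CPM in control, without overlap, and did not pass (log2 fold change -0.93, SE 0.26, edgeR adjusted p = 0.0558). Rax, a further eye factor, had 0 counts in all libraries. The fallen gene was Prrxl1, a factor of sensory neurons that acts downstream of Tlx3, at 0.0523 ± 0.0599 CPM in 2KO and 1.64 ± 0.485 CPM in control (edgeR adjusted p = 0.0231). It passed the filter only through control libraries. The call of Prrxl1 was lost without 2KO replicate 1 (adjusted p = 0.0717) or 2 (0.0682) and without control replicate 1 (0.0521), 2 (0.0704) or 3 (0.0934). None of the 4 adhesion genes linked to Barx2 passed: Ncam1 was at 186 ± 48.7 CPM in 2KO and 144 ± 88.2 CPM in control, L1cam at 136 ± 40.6 and 92.5 ± 16.5 CPM, Nrcam at 1.63 ± 0.919 and 6.17 ± 2.40 CPM, and Cdh6 at 2.55 ± 2.55 and 12 ± 4.53 CPM. Nrcam and Cdh6 were lower in 2KO without overlap (log2 fold change -1.92, SE 0.6, and -2.24, SE 0.97). Ncam1 and L1cam overlapped between the groups (0.37, SE 0.38, and 0.56, SE 0.25).

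The profiles most like those of both Barx genes were sought among 12520 tested genes with a mean of at least 2 CPM, by the root mean square difference of log2(CPM + 0.5), centred on each gene's mean over the 6 libraries. For Barx1 they were Zic1 (0.21), Sim2 (0.24), Hoxd13 (0.35), Gata4 (0.48) and the predicted gene Gm11538 (0.48). For Barx2 they were Gdpgp1 (0.05), Elmod2 (0.05), Mier2 (0.06), Snap23 (0.07) and Scoc (0.07), which were at similar levels in the libraries of both groups, with replicate 1 the lowest 2KO library and replicate 2 the highest control library.

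Several members act in mesenchyme or nerve, so marker genes of other cell types were set beside them. Of 12 dermal fibroblast markers 11 were tested, 4 were higher in 2KO (Col5a1, Col6a1, Pdgfra and Fbn1) and none was lower. Among all tested genes, 6.61% were higher and 2.42% were lower. The call of Col6a1 was lost without 2KO replicate 2 (edgeR adjusted p = 0.0534) or 3 (0.0563), and those of Col6a1, Pdgfra and Fbn1 when both replicate-3 libraries were left out (0.106, 0.0684 and 0.0645). The summed level of the 12 was 999 to 1120 CPM in 2KO libraries and 517 to 876 CPM in control libraries. Dcn, the most abundant of them, was at 474 ± 66.9 CPM in 2KO and 382 ± 97.5 CPM in control. The other 7 tested markers, Dcn included, did not pass. Their log2 fold changes were positive for Pdgfrb (1.12), Col1a1 (0.67), Dcn (0.31) and Col3a1 (0.11). Those of Lum (-0.85), Dpt (-0.77) and Col1a2 (-0.13) were negative. Lum was at 2.14 ± 2.50 CPM in 2KO and 3.86 ± 3.27 CPM in control. Twist2 was not tested and had 1 count in 2KO and 17 in control libraries. The 8 skeletal muscle markers summed to 0.601 to 2.00 CPM in 2KO and 1.63 to 1.9 CPM in control, and the 5 Schwann cell and nerve markers to 97.4 to 125 and 118 to 134 CPM. The endothelial, immune and melanocyte markers summed to 3.6 to 14.7, 8.79 to 17.3 and 18.1 to 62.2 CPM in 2KO, and to 4.94 to 10.6, 10.3 to 17.5 and 24.6 to 32.9 CPM in control. In these lists none passed in either direction. The 5 Merkel cell markers summed to 15 to 47.7 CPM in 2KO and 6.49 to 13.9 CPM in control; 4 were tested and 1, Krt18, was higher (23.9 ± 18.9 CPM in 2KO, 1.67 ± 1.27 CPM in control, edgeR adjusted p = 0.00847), a call lost when both replicate-3 libraries were left out. The higher sum came from Krt18: Krt20 was at 0.349 ± 0.252 CPM in 2KO and 2.06 ± 0.769 CPM in control without overlap, Krt8 at 0.786 ± 0.792 and 1.55 ± 0.35 CPM and Isl1 at 1.69 ± 0.478 and 2.4 ± 0.581 CPM, none past the threshold. Atoh1, the defining factor of Merkel cells, was not tested and had 5 counts in 2KO and 140 in control libraries. Control replicate 2 held 108 of these, and control replicates 1 and 3 held 25 and 7. The groups did not overlap, but control replicate 3 (0.229 CPM) lay close to 2KO replicate 3 (0.196 CPM). The median log2 fold change of the 4 tested Merkel cell markers was -0.74. The 5 keratinocyte markers summed to 18600 to 26100 CPM in 2KO and 13100 to 25300 CPM in control. All 5 were tested and none passed. Krt5, Krt14 and Itgb4 had positive log2 fold changes (0.45, 0.42 and 0.56), and Krt15 and Trp63 negative ones (-0.33 and -0.52). Trp63 was lower in 2KO without overlap (1260 ± 87 CPM in 2KO, 1800 ± 137 CPM in control). The part of other cell types in the levels of the members was not tested.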

How the data were processed

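RNA sequencing was done on 3 libraries labelled 2KO and 3 labelled control. From sorted cells, 10 ng of RNA was amplified, per the labels' protocols, with the Ovation RNA-seq System, and single reads of 100 nt were obtained. The authors deposited raw counts per gene, not normalized. Per the submitters' processing notes, the build is mm10 and the tools named include HTSeq 0.6.1, TopHat2 2.0.13, DESeq2 1.6.3 and Cufflinks 2.2.1. What each tool did, the annotation and the strand setting were not given in the sources used here. Amplified reads without molecular identifiers are not independent molecules, so counting intervals and floors of 3 counts cover counting error only.

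In edgeR 4.0.16 (R 4.3.3), low counts were filtered with filterByExpr at its defaults, and libraries were scaled by TMM and compared by the quasi-likelihood test, 2KO over control, with no covariate and Benjamini-Hochberg adjustment over all 14972 tested genes (threshold 0.05). The procedure was tested on simulated data. An SE is the size of the log2 fold change over the root of F. Gene positions and exon lengths are from GENCODE M21 (GRCm38, which mm10 names), in which 97.1% of symbols matched 1 gene. Named genes are all members, the genes of the sort and knockout, every list or neighbour gene past the threshold, and the 5 profiles nearest to Barx1 and to Barx2; other genes were named after their values were seen, as members of the lists. A partner gene past the threshold is counted but not reported by name here. Members, lists and alternatives were chosen with earlier results of these data known. Alternatives were another scaling (RLE), no filter, DESeq2 1.42.0, a replicate block, Xist as a covariate, and leaving out libraries.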

Additional observations from a re-analysis of the deposited data

How the results depend on the processing

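Over 13 alternatives, Barx1 kept its call in all, Vax2 in 12, and Tlx1 and Emx2 in 5 each. The number of risen members was 2 with Xist as a covariate, 2 without both replicate-1 libraries, 1 without both replicate-3 libraries, and 2 to 5 when 1 library was left out. Tlx3 passed with DESeq2, Vax1 with no filter, and Hlx and Vax1 without control replicate 2. The sign of Barx2, never past the threshold, turned to -0.09 without both replicate-3 libraries and ranged from -0.05 to 0.26 when 1 library was left out. Of all tested genes, 309 were higher and 72 lower without both replicate-3 libraries, 733 were lower with DESeq2 and 231 with Xist as a covariate; leaving out 1 library gave 615 to 854 higher and 184 to 347 lower genes. Of the other NK-like homeobox genes, 1 was higher and 0 lower without both replicate-3 libraries, 0 were lower without both replicate-1 libraries, and 0 to 1 without 1 library. Of the neighbours, 0 were lower without both replicate-1 or both replicate-3 libraries, and 0 to 1 were higher without 1 library. Of the partner genes, 2 were lower with no filter, 3 with DESeq2, 0 with Xist as a covariate and 0 without both replicate-1 or both replicate-3 libraries, and 0 to 1 without 1 library. The causes were not tested. Same-numbered libraries deviated together with correlations of 0.32, 0.10 and -0.13, and not every library correlated best with its own number, so the numbers were not taken as pairs; with the replicate block, 4 members, 1142 genes in all and 3 other NK-like genes were higher, and 540 genes in all, 1 other NK-like gene and 2 partner genes lower. At these depths a gene without a read may still be present at up to 0.0969 to 0.118 CPM.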

Other observations

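Some genes of the NK-like class and of the partner list had too few counts to be tested, and were picked out here after their values were seen. Bsx, a factor of the hypothalamus and pineal gland, had 30 counts in 2KO replicate 3 and 0 in every other library. Lhx1, a factor of kidney and head development, had 27, 1 and 4 counts in 2KO replicates 1 to 3, and Nkx2-5, a factor of heart and spleen, had 20, 26 and 6, with 0 counts in every control library for both genes. Hmx2, a paralog of Hmx1, had 5, 6 and 8 counts in 2KO replicates 1 to 3 and 0 in control libraries. Noto, a factor of the notochord, went the other way, with 0, 0 and 2 counts in 2KO libraries and 16 counts in control replicate 2 alone. Together with Lbx1, of whose 26 counts 25 were in 2KO replicate 2, the genes with reads in mainly 1 library of a group were not confined to any single library.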
